A study of Arabidopsis thaliana with 9 samples.

Results

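The photosystem I antenna genes LHCA1 to LHCA6 encode the chlorophyll-binding proteins that surround the core of photosystem I. The 6 genes were taken by their identifiers from the gene tables of an RNA sequencing series, and all 6 of 6 were found among the 33977 gene rows of each table. The identifiers are AT3G54890 (LHCA1), AT3G61470 (LHCA2), AT1G61520 (LHCA3), AT3G47470 (LHCA4), AT1G45474 (LHCA5) and AT1G19150 (LHCA6), and the TAIR10.1 gene table gives the same symbols. Whole 4-day-old seedlings of Arabidopsis thaliana, all of ecotype Col, were raised on MS plates under continuous white light. A myb30 mutant, a line overexpressing MYB30 (MYB30-OE) and wild-type Col plants gave 3 libraries each. MYB30 is a transcription factor of the R2R3-MYB family. The labels name neither the mutant allele nor the promoter that drives the overexpression, and nothing in them says whether the 3 libraries of one genotype were grown apart.

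The authors deposited pairwise comparisons and no values of single libraries, so each level below is 1 value per genotype and its spread between libraries is unknown. Levels are implied CPM, read counts scaled to the total of the library, worked back from the deposited average log2 CPM and log2 fold change. Differences are called at an adjusted p under 0.05, after Benjamini-Hochberg adjustment of the deposited p-values over all genes with a read. The tables imply averages of 36516310 gene reads per library in myb30, 32367682 in MYB30-OE and 33905540 in Col. The direction of the fold changes was read from MYB30 itself, which stood at 4.56 CPM in myb30, 617 CPM in MYB30-OE and 32.2 CPM in Col. The test behind the p-values is not given, and any spread between libraries that they rest on may be technical.

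Light harvesting proteins of the LHCA family sit as a crescent on one side of the photosystem I core and pass excitation energy to it. LHCA1 pairs with LHCA4 and LHCA2 pairs with LHCA3, and these dimers make up the main antenna belt of photosystem I in plants. LHCA3 and LHCA4 carry the long-wavelength chlorophylls for which this antenna is known. LHCA5 and LHCA6 are present in far smaller amounts and are known as linkers that attach photosystem I to the chloroplast NADH dehydrogenase-like (NDH) complex, which works in cyclic electron flow. All of them are nuclear genes that are induced by light in green tissue.

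The windows around the annotated starts of 4 genes are printed because these genes mark the extremes of the family. LHCA1 and LHCA4 encode the dimer whose transcripts differed most between myb30 and MYB30-OE, LHCA5 differed least, and LHCA6 had the largest fall in myb30. Each window covers 250 bases before and 50 bases from the start of the gene in the RefSeq TAIR10.1 annotation and is written 5′ to 3′ on the gene's strand. They lie at chr3:20341127-20341426 (minus strand) for LHCA1, chr3:17494984-17495283 (minus strand) for LHCA4, chr1:17179000-17179299 (plus strand) for LHCA5 and chr1:6612380-6612679 (plus strand) for LHCA6. Capitals mark matches, on either strand, to CACGTG (the G-box of light-responsive promoters), GATAAG (the I-box), CCAATC (a motif of genes that respond to GLK factors), AAAAATCT (a binding element of the clock factor CCA1), TATAAA (the TATA box) and a set of AC-type elements, to which R2R3-MYB factors bind in other genes. The AC-type letters searched were ACCAACC for the first element, ACCTACC for the second element and ACCAAAC for the third element. The TAIR10.1 starts need not coincide with those of the deposited annotation.
LHCA1: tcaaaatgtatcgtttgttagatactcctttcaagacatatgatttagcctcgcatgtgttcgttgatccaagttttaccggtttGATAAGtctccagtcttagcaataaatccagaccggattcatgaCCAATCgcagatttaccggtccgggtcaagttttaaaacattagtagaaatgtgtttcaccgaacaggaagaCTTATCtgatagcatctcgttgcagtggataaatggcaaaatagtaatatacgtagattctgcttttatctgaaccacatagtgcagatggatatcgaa
LHCA4: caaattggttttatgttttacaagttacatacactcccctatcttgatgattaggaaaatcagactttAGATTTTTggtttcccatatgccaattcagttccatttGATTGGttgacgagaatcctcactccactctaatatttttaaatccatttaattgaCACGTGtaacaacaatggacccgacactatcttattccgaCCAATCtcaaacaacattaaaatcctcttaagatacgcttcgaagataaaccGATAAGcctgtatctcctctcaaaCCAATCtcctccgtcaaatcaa
LHCA5: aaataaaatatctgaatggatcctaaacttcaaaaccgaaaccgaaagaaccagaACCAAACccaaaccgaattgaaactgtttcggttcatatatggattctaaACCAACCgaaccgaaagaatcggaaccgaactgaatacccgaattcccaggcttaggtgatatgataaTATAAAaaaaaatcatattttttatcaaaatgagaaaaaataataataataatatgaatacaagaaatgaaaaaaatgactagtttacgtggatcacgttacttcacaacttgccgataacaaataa
LHCA6: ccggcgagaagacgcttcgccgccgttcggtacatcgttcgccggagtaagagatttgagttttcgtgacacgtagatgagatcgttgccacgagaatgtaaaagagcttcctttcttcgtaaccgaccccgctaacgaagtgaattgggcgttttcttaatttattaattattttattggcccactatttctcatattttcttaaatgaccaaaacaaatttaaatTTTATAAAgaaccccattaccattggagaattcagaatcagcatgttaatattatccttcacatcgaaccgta

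The matches differed from gene to gene. The LHCA4 window held 1 G-box match, 1 I-box match, 3 CCAATC matches and 1 CCA1 element, whereas that of LHCA1 held 2 I-box matches and 1 CCAATC match. LHCA3 had 1 CCAATC match and 1 TATA box, and LHCA2 had 1 TATA box. LHCA5 was the member with AC-type elements, 1 match to ACCAACC at position -145 and 1 match to ACCAAAC at position -195, counted from the start, beside 1 TATA box. In LHCA6 the matches were 2 overlapping TATA boxes on opposite strands. Among 27443 windows of the same length around the starts of all protein-coding nuclear genes, 7.68% held a G-box, 14.6% an I-box, 12.3% CCAATC, 7.88% the CCA1 element, 52.1% a TATA box and 13.9% any of the AC-type elements. A match is a description of these letters and not a bound site.

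**Figure D1:**
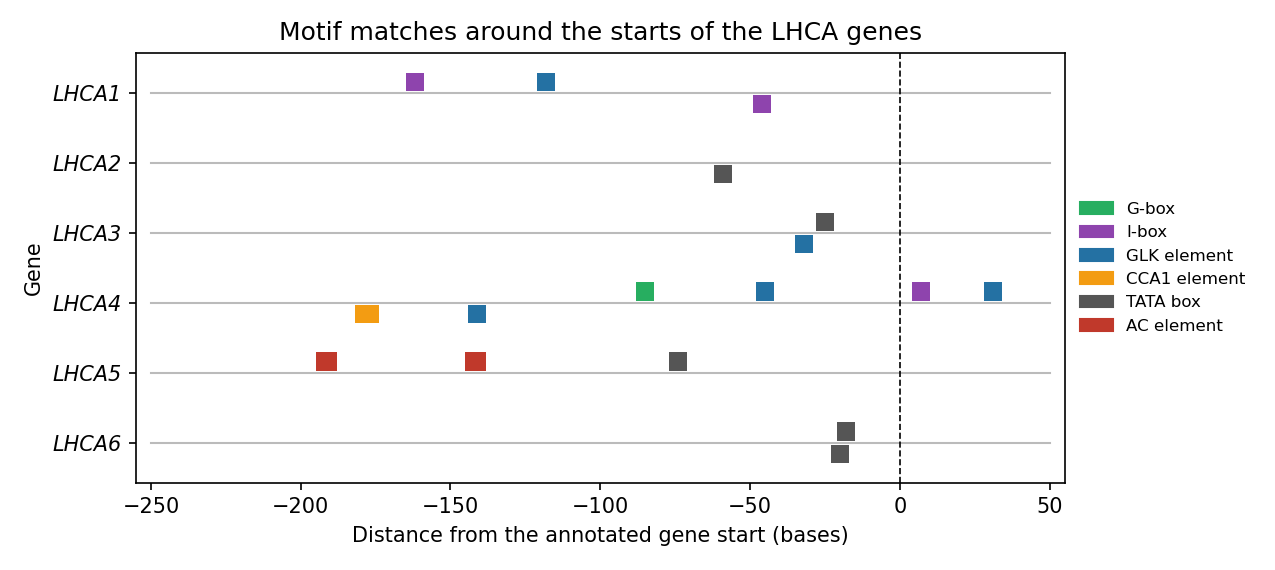
Motif matches in the windows of the 6 LHCA genes, by distance in bases from the annotated gene start in TAIR10.1 (dashed line). Boxes above a gene's line are matches on its own strand and boxes below are matches on the other strand. LHCA4 has the most matches, and the red AC-type boxes stand in LHCA5.

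Positions are those of the deposited TAIR10 annotation. On the minus strand of chromosome 3, LHCA1 extends from 20339504 to 20341103 and LHCA4 from 17493372 to 17495033. LHCA2 spans bases 22745653 to 22747282 of chromosome 3, plus strand. On the plus strand of chromosome 1, LHCA3 runs from 22699715 to 22701383, LHCA5 from 17179302 to 17180806 and LHCA6 from 6612749 to 6613972. The first listed transcript has 3 exons in LHCA3 and LHCA6, 4 in LHCA1, LHCA2 and LHCA4, and 5 in LHCA5. Coding sequences of the 6 genes were 61.2% to 69.3% identical in pairs, most for LHCA1 with LHCA4, and no pair shared a run longer than 20 bases. Reads longer than that differ between the members' coding sequences.

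One member has a close copy elsewhere. Of 911 stretches of 50 bases within LHCA2 exons, 787 occurred once in the TAIR10.1 genome. The others were found again on chromosome 5 between 10372726 and 10373370, mostly within AT5G28450, a gene annotated as chlorophyll a/b-binding. Its coding sequence was 86.4% identical to that of LHCA2 over 522 aligned bases, with a shared run of 98 bases, so the division of reads between this pair is uncertain. AT5G28450 stood at 38.2 CPM in myb30, 74.9 CPM in MYB30-OE and 59.5 CPM in Col, far below LHCA2. All 50-base stretches within exons of the other 5 members occurred once. The labels do not state the read length.

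LHCA4 and LHCA5 overlap genes on the opposite strand, and the labels do not say whether the libraries keep strand. The overlap covers 24 bases with AT3G47460 for LHCA4 and 192 bases with AT1G45545 for LHCA5. AT3G47460 had 11.4 CPM in myb30, 10.6 CPM in MYB30-OE and 11.2 CPM in Col, and AT1G45545 had 1.95 CPM in myb30, 1.17 CPM in MYB30-OE and 1.29 CPM in Col, all small beside the levels of LHCA4 and LHCA5.

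Levels separate the family into 4 abundant belt genes and 2 linker genes at lower levels. Per kb of exon, the belt genes in Col ranked 18 (LHCA4), 19 (LHCA1), 22 (LHCA2) and 48 (LHCA3) among 28276 annotated genes. LHCA5 ranked 921 and LHCA6 ranked 1045 in Col. The order LHCA4, LHCA1, LHCA2, LHCA3, LHCA5, LHCA6 rests on values without a spread, and LHCA4 (2166 CPM per kb) and LHCA1 (2165 CPM per kb) were equal within 1 CPM per kb in Col. Summed over the family, 0.629% of gene reads in myb30, 1.26% in MYB30-OE and 0.993% in Col came from the 6 genes.

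LHCA1 stood at 1321 CPM per kb in myb30, 2902 in MYB30-OE and 2165 in Col. LHCA2 had 1355 CPM per kb in myb30, 2609 in MYB30-OE and 2104 in Col. For LHCA3 the levels were 877 CPM per kb in myb30, 1654 in MYB30-OE and 1350.4 in Col. All 3 were lowest in myb30 and highest in MYB30-OE. LHCA4 had 1368 CPM per kb in myb30, 2769 in MYB30-OE and 2166 in Col. LHCA5 had 104 CPM per kb in myb30, 146 in MYB30-OE and 138 in Col. LHCA6 had 69.8 CPM per kb in myb30, 123 in MYB30-OE and 120.3 in Col. In the linker genes the MYB30-OE value lay close to that of Col. The lowest of these levels, LHCA6 in myb30, still corresponds to about 2660 implied reads per library.

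**Figure D2:**
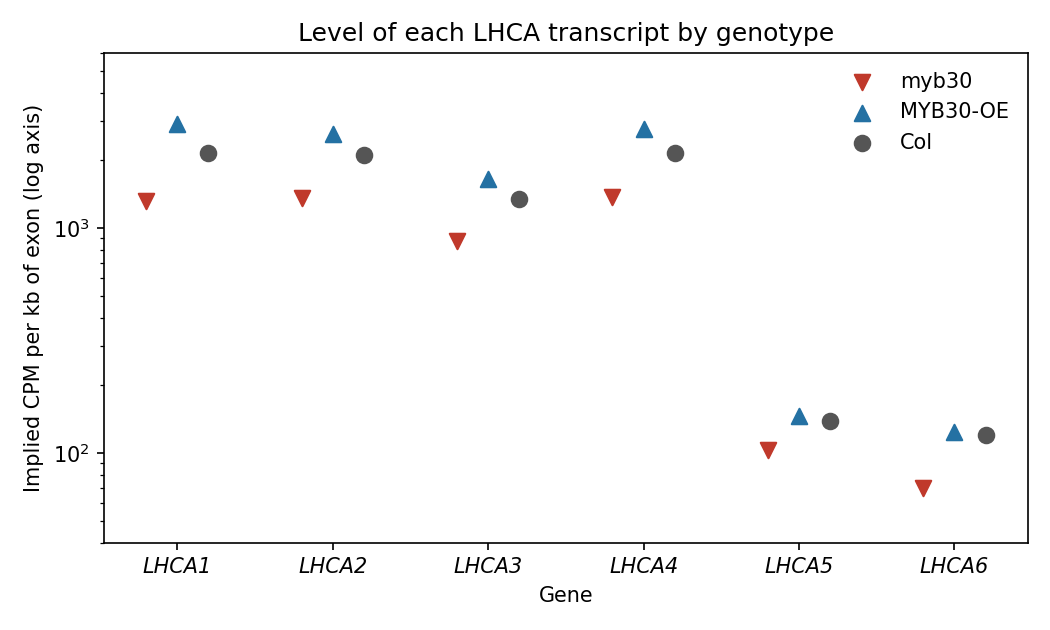
Implied level of each LHCA transcript in CPM per kb of exon (log axis), with 1 point per genotype. LHCA1 to LHCA4 lie between 877 and 2902 and LHCA5 and LHCA6 between 69.8 and 146. The points carry no error bars because single libraries are not used here.

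The proportions within each belt dimer differed little between genotypes. The level of LHCA1 per kb over that of its partner LHCA4 was 0.966 in myb30, 1.05 in MYB30-OE and 1.00 in Col. LHCA2 over its partner LHCA3 gave 1.55 in myb30, 1.58 in MYB30-OE and 1.56 in Col. Ratios across the dimers differed more. LHCA1 over LHCA3 was 1.51 in myb30, 1.75 in MYB30-OE and 1.60 in Col. LHCA1 over LHCA2 was 0.975 in myb30, 1.11 in MYB30-OE and 1.03 in Col. LHCA5 over LHCA6 gave 1.48 in myb30, 1.18 in MYB30-OE and 1.15 in Col. The summed belt level over the summed linker level was 28.4 in myb30, 36.8 in MYB30-OE and 30.1 in Col. These ratios have no spread and were not tested.

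The comparison of the myb30 mutant with Col asks whether antenna transcripts differ without normal MYB30 levels. All 6 LHCA transcripts fell in myb30. Of the members, 6 of 6 passed as lower in the authors' deposited table, against 10.7% of all 25713 genes with a read called lower and 10.8% called higher. At an average of at least 50 CPM, a level that every member exceeds and that was chosen after values were seen, 18.2% of genes were called lower. The members had a median log2 fold change of -0.65, against 0.01 over all genes tested.

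Within the belt the falls in myb30 were of similar size. LHCA1 had 1586 CPM in myb30 against 2598 CPM in Col, a log2 fold change of -0.71 in the authors' deposited table (adjusted p = 1.02e-07). LHCA4 had 1732 CPM in myb30 against 2742 CPM in Col, with a log2 fold change of -0.66 in the authors' deposited table (adjusted p = 8.57e-07). These are the partners of one dimer and both were lower in the mutant. LHCA2 had 1500.0 CPM in myb30 against 2329 CPM in Col, with -0.63 in the authors' deposited table (adjusted p = 1.67e-07) on the log2 scale. LHCA3 had 1296 CPM in myb30 against 1997 CPM in Col, with -0.62 in the authors' deposited table (adjusted p = 8.80e-07) on the log2 scale. The copy AT5G28450 fell by 0.64 on the log2 scale in the authors' deposited table (adjusted p = 4.92e-06). Its reads may include reads of LHCA2, so this value is not separate from that of LHCA2.

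The linker genes held both the largest and the smallest fall of the family in myb30. LHCA6 had 72.8 CPM in myb30 against 126 CPM in Col, which is 1.72-fold lower in the authors' deposited table (log2 fold change -0.78, adjusted p = 1.84e-11). Only 2.75% of genes at 50 CPM or more had a lower log2 fold change than LHCA6. LHCA5 had 106 CPM in myb30 against 141 CPM in Col, which is 1.33-fold lower in the authors' deposited table (log2 fold change -0.41, adjusted p = 0.00162). At Bonferroni adjustment LHCA5 did not pass and 5 members were lower in myb30. For LHCA5, 12.8% of genes at 50 CPM or more had a lower value. A difference between LHCA5 and LHCA6 in their fold changes was not tested, as no library values are used here.

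Some root markers moved in the same libraries. Of 7 root tissue markers 4 rose in myb30 against Col (EXPA7, EXPA18, COBL9 and WOX5), against 10.8% of all genes, and none fell. The other 3 did not pass, with log2 fold changes in the authors' deposited table of -0.05 for SCR, -0.09 for CASP1 and 0.36 for PLT1. The summed level of the 7 was 145 CPM in myb30, 122 CPM in MYB30-OE and 117 CPM in Col, with no marker at 0. Most of the higher sum in myb30 came from the root hair expansins EXPA7 (25.3 CPM in myb30 against 10.7 CPM in Col) and EXPA18 (22.7 CPM in myb30 against 10.96 CPM in Col). EXPA7 was 2.36-fold higher in myb30 in the authors' deposited table (adjusted p = 2.25e-06). In MYB30-OE against Col 2 of the 7 markers rose and none fell, beside 5.99% higher and 5.49% lower over all genes. In myb30 against MYB30-OE 2 were higher and none lower, beside 16.2% higher and 15.4% lower over all genes. The part of tissue proportions in the LHCA results was not tested, and in whole seedlings fewer green cells and less RNA per cell cannot be told apart.

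The comparison of MYB30-OE with Col asks whether raised MYB30 levels go with a change of the same transcripts. The belt genes rose and the linker genes did not pass. Of the members, 4 of 6 passed as higher in the authors' deposited table, against 5.99% of 25593 genes called higher and 5.49% called lower, or 9.61% called higher at 50 CPM or more. The members had a median log2 fold change of 0.33, against 0.00 over all genes tested. At Bonferroni adjustment 2 members passed.

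LHCA1 reached 3482 CPM in MYB30-OE against 2598 CPM in Col. Col levels here come from the comparison with myb30. Those implied by the comparison with MYB30-OE were 0.980 of them in each of the 6 members. The printed levels therefore give slightly smaller rises than the deposited folds. LHCA1 was 1.37-fold higher in the authors' deposited table (log2 fold change 0.45, adjusted p = 4.01e-06). For LHCA1, 97.5% of genes at 50 CPM or more had a lower log2 fold change. LHCA4 had 3505 CPM in MYB30-OE against 2742 CPM in Col, with a log2 fold change of 0.38 in the authors' deposited table (adjusted p = 2.29e-04). In the belt the transcripts of LHCA1 and LHCA4 had the largest rises, but this order was not tested. LHCA2 had 2888 CPM in MYB30-OE against 2329 CPM in Col, and was 1.27-fold higher in the authors' deposited table (adjusted p = 2.42e-05). LHCA3 had 2447 CPM in MYB30-OE against 1997 CPM in Col, and was 1.25-fold higher in the authors' deposited table (adjusted p = 4.11e-04). The copy AT5G28450 had a log2 fold change of 0.36 in the authors' deposited table (adjusted p = 0.00189), near the 0.34 of LHCA2. The part of shared reads in this likeness was not tested.

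LHCA5 had 149 CPM in MYB30-OE against 141 CPM in Col, and its log2 fold change of 0.11 in the authors' deposited table did not pass (adjusted p = 0.392). LHCA6 had 129 CPM in MYB30-OE against 126 CPM in Col, and its log2 fold change of 0.07 in the authors' deposited table did not pass either (adjusted p = 0.667). A p that misses the threshold does not show that these levels are equal. The difference between belt and linker genes in their response to MYB30-OE was not tested. The implied reads per library in MYB30-OE were 4821 for LHCA5 and 4169 for LHCA6.

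Between myb30 and MYB30-OE the differences of all 6 genes were wider than those of either line from Col. It shares its libraries with the other comparisons and is no independent support for them. All 6 members passed as lower in myb30, against 15.4% of 25647 genes called lower and 16.2% called higher, or 23.3% called lower among genes at 50 CPM or more. In the authors' deposited table the median log2 fold change of the members was -0.96, against 0.03 over all genes tested. LHCA1 was 2.24-fold lower in myb30 than in MYB30-OE in the authors' deposited table (log2 fold change -1.16, adjusted p = 3.06e-28), and LHCA4 was 2.07-fold lower (adjusted p = 1.28e-22). LHCA2 and LHCA3 had log2 fold changes of -0.98 and -0.95 in the authors' deposited table. LHCA6 was 1.80-fold lower (adjusted p = 5.75e-15) and LHCA5 1.44-fold lower (adjusted p = 8.20e-06) in the authors' deposited table.

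**Figure D3:**
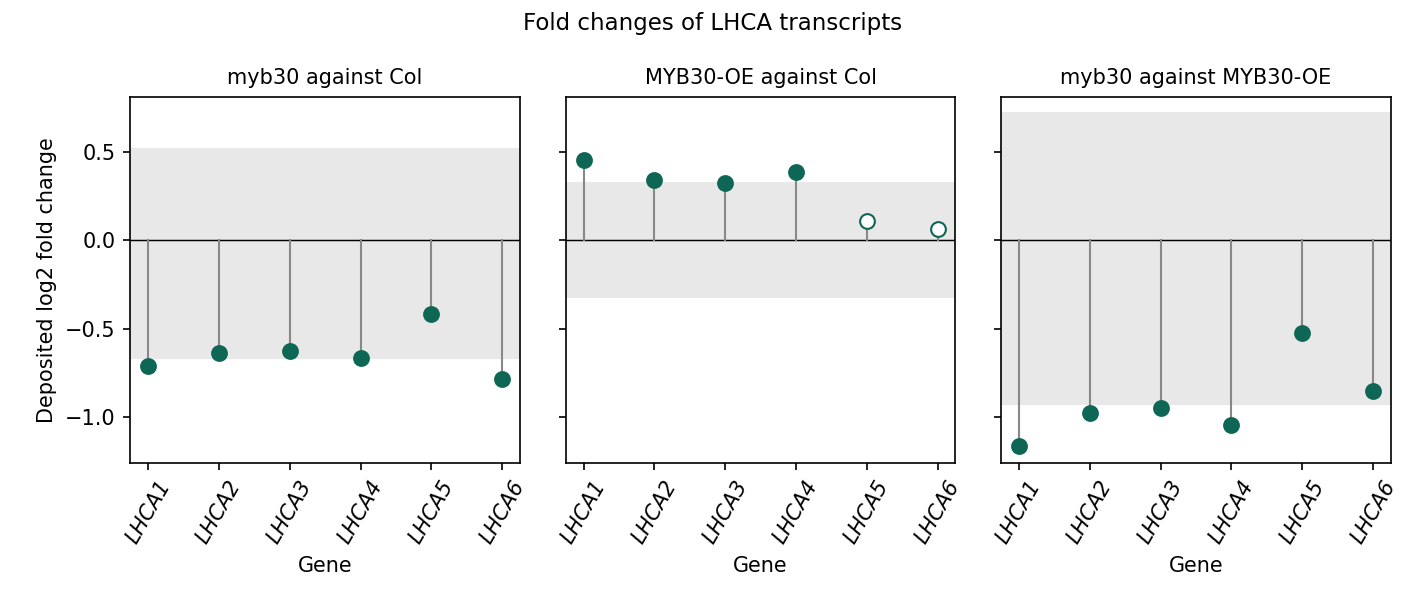
Deposited log2 fold change of each LHCA gene in the 3 comparisons, the first-named genotype over the second. Filled points passed an adjusted p of 0.05 and open points did not. The grey band spans the 5th to 95th percentile of genes at 50 CPM or more. All 6 genes are lower in myb30, and LHCA5 and LHCA6 are the open points in MYB30-OE against Col.

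Other genes of the photosynthetic apparatus were taken from lists of known subunits. The counts of these and the later lists stand beside the following shares of all genes. In myb30 against Col 10.7% were called lower and 10.8% higher. In MYB30-OE against Col 5.49% were called lower and 5.99% higher. In myb30 against MYB30-OE 15.4% were called lower and 16.2% higher. Photosystem I subunits, which form the core that LHCA proteins feed, fell in 12 of 12 cases in myb30 against Col in the authors' deposited table (median log2 fold change -0.66). PSAG, known as a docking point for LHCA1, had the largest fall of that list in the authors' deposited table (1.84-fold, adjusted p = 6.29e-10). In MYB30-OE 8 of 12 rose (median 0.26), with PSAL 1.31-fold higher in the authors' deposited table (adjusted p = 5.02e-06). Against MYB30-OE all 12 were lower in myb30 (median -0.92).

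The nuclear genes of the NDH complex, to which LHCA5 and LHCA6 bind, fell in 15 of 16 measured cases in myb30 against Col (median log2 fold change -0.81 in the authors' deposited table). In the authors' deposited table NDHU was 2.22-fold lower (adjusted p = 4.32e-20), and PNSL5, a cyclophilin, did not pass (log2 fold change -0.04, adjusted p = 0.890). In MYB30-OE 2 of 16 rose, PNSL2 (1.23-fold, adjusted p = 0.00241) and NDHU (log2 fold change 0.28, adjusted p = 0.00615), and none fell, with a median of 0.10 in the authors' deposited table. Against MYB30-OE 15 of 16 were lower in myb30 (median -0.98). NDHL, the other listed gene, had no read in the tables, which does not show an absent transcript. LHCA5, at -0.41 in myb30 against Col, fell less than the NDH median, and LHCA6, at -0.78, was close to it. Whether the lists differ from each other or from the members was not tested.

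The photosystem II antenna gave similar values. Of the major genes LHCB1 to LHCB3, 8 of 8 measured fell in myb30 (median -0.55) and 7 of 8 rose in MYB30-OE (median 0.34), with LHCB1.4 at log2 fold changes of -1.29 and 0.57 in the authors' deposited tables. The other listed major gene, LHCB1.5, had no read in any comparison, which does not show an absent transcript. Copies were searched for the LHCA members only, so the division of reads among the LHCB genes was not checked. Of the minor genes LHCB4 to LHCB6, 5 of 5 fell in myb30 (median -0.66) and 4 of 5 rose in MYB30-OE (median 0.23). The exception, LHCB4.3, had a log2 fold change of -0.28 in MYB30-OE in the authors' deposited table and did not pass (adjusted p = 0.0628). LHCB4.2 was 1.73-fold lower in myb30 (adjusted p = 6.32e-10) and LHCB5 1.22-fold higher in MYB30-OE (adjusted p = 0.00182) in the authors' deposited tables. Against MYB30-OE, 8 of 8 major and 5 of 5 minor genes were lower in myb30.

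Genes that handle antenna proteins after synthesis were less uniform. Of 7 such genes, 4 fell and none rose in myb30 against Col (median -0.33 in the authors' deposited table). STN7, the kinase of state transitions, was 1.70-fold lower in the authors' deposited table (adjusted p = 8.20e-09). The phosphatase gene TAP38, which opposes STN7, had log2 fold changes of -0.62 in myb30 (adjusted p = 4.10e-07) and 0.45 in MYB30-OE (adjusted p = 8.37e-10) in the authors' deposited tables. In MYB30-OE 1 of the 7 rose and 2 fell (median -0.06). The chloroplast targeting genes LTD (log2 fold change -0.34, adjusted p = 0.00110) and CPFTSY (-0.24, adjusted p = 0.00775) were the falls in the authors' deposited table. Against MYB30-OE 3 of 7 were lower in myb30 and none higher.

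Known regulators of antenna genes were called in both directions. The list was not split into activators and repressors, so its counts and medians do not tell which way regulation moved. Of 12 regulators, 3 fell and 1 rose in myb30 against Col in the authors' deposited table (median -0.05). Over all genes 10.7% were called lower and 10.8% higher there, and in MYB30-OE against Col 5.49% lower and 5.99% higher. LHY, a clock factor, was 1.53-fold lower (adjusted p = 7.00e-07), and CGA1, a GATA factor, was 1.65-fold higher (adjusted p = 4.11e-04) in the authors' deposited table. In MYB30-OE 2 rose and 4 fell (median -0.21), with PIF4, a phytochrome-interacting factor, 1.42-fold higher (adjusted p = 0.00282) and the GATA factor GNC lower (log2 fold change -0.49, adjusted p = 0.00581) in the authors' deposited table. LHY was lower in MYB30-OE too (log2 fold change -0.48, adjusted p = 1.00e-09). The clock factor CCA1 was lower in both lines, by log2 fold changes of -0.35 in myb30 (adjusted p = 0.0263) and -0.30 in MYB30-OE (adjusted p = 0.00921). PIF5 was lower in myb30 (-0.36, adjusted p = 0.0145) and higher in MYB30-OE (0.23, adjusted p = 0.0489). GLK1, an activator of antenna genes, did not pass in either line, at log2 fold changes of 0.03 in myb30 (adjusted p = 0.953) and 0.05 in MYB30-OE (adjusted p = 0.857) in the authors' deposited tables. Its relative GLK2 had log2 fold changes of -0.07 in myb30 (adjusted p = 0.773) and -0.23 in MYB30-OE (adjusted p = 0.127) in the authors' deposited tables and did not pass. Against MYB30-OE, 2 of the 12 regulators were lower and 3 higher in myb30, beside 15.4% lower and 16.2% higher over all genes.

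**Figure D4:**
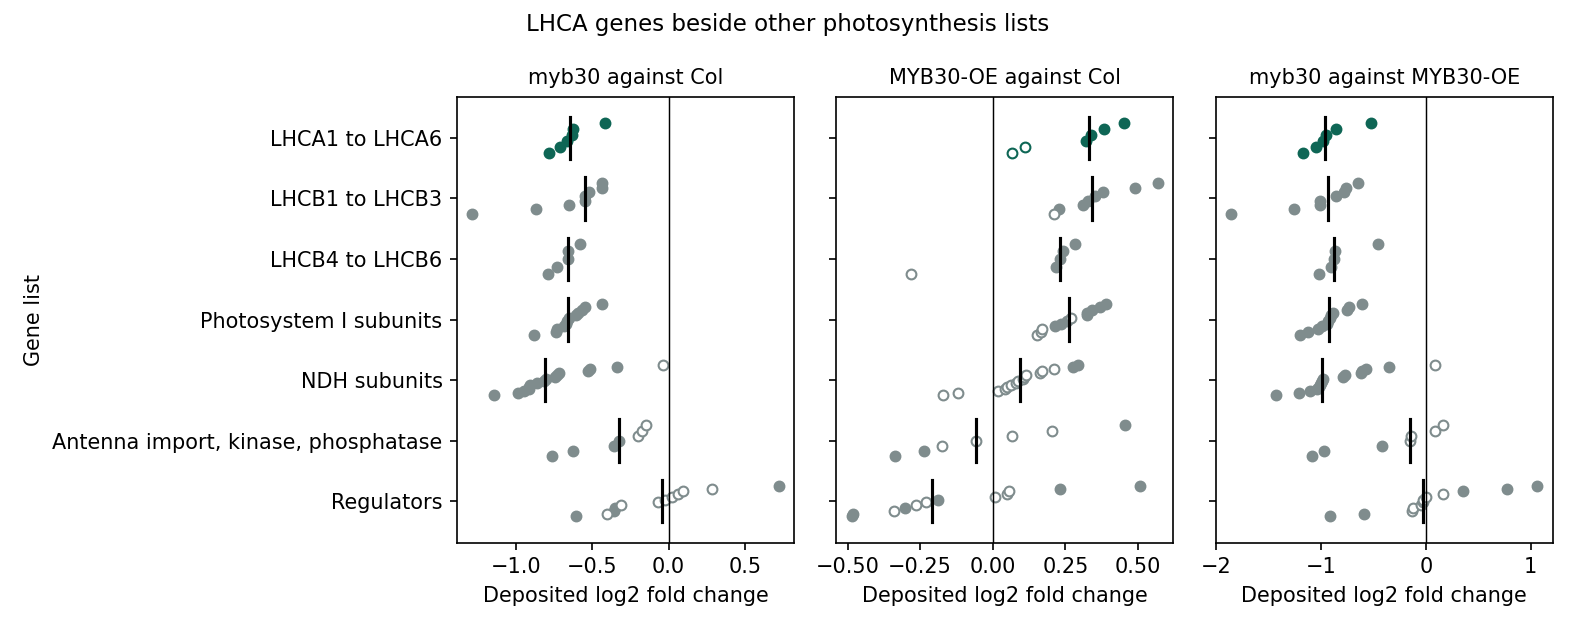
Deposited log2 fold changes of the LHCA genes (green) and of 6 other gene lists (grey) in the 3 comparisons, the first-named genotype over the second. Each point is a gene, filled where it passed an adjusted p of 0.05, and black bars are list medians. The LHCA median is -0.65 in myb30 against Col and 0.33 in MYB30-OE against Col.

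Likeness of pattern was measured as the distance between pairs of log2 fold changes, in myb30 and in MYB30-OE, from the median pair of the 6 members, over 2 comparisons that share the Col libraries. Among 1758 other genes at 100 CPM or more, the 8 nearest included the antenna and photosystem genes LHCB2.1, PSAE-2 and PSAO. The nitrate reductase gene NIA2 (distance 0.01) and the chloroplast glutamine synthetase gene GS2 (0.03) act in nitrogen assimilation. PATL1 (0.02), a patellin, and the genes AT5G35970 (0.04) and AT1G80380 (0.05) made up the rest. Among the members LHCA2 (0.02) and LHCA3 (0.03) lay nearest to the median pair, and LHCA5 (0.32) and LHCA6 (0.30) farthest. Within the distance of LHCA5, 9.84% of the other genes were found.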

How the data were processed

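RNA was sequenced from 9 libraries, 3 each of myb30, MYB30-OE and Col. TopHat, Cufflinks and Cuffdiff appear in the submitters' processing notes beside the build TAIR10, without versions. For each pair of genotypes the authors deposited a table giving every gene's log2 fold change, its log2 CPM averaged over the libraries and a p-value with no adjustment, per the file headers. Those headers carry the column names that edgeR writes, a tool absent from the notes, and the counting step and the test behind the p-values are not given in the labels. Labels gave the genotypes of each table, and the direction of the fold change was read from MYB30, so MYB30 is no check of the labels.

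Benjamini-Hochberg adjustment was applied across all genes with a read, those above the lowest average log2 CPM. That floor implies library size if 2 reads per library were added, which is an assumption. Levels in each genotype were solved from those columns under equal library sizes, and are approximations. The 2 tables that hold a genotype gave member levels within ratios of 0.980 and 1.02. Levels of Col come from the table with myb30. Lengths are unions of exons in the deposited TAIR10 annotation. Of 35176 coding transcripts there, 99.96% begin with ATG on the RefSeq TAIR10.1 genome, from which windows and coding sequences were read. Alignments used Biopython 1.88 and other steps Python 3.11.15 with pandas 2.3.3. Scripts were tested on simulated data made with the same 2 added reads and equal library sizes, so those assumptions were not checked. The members and lists were chosen with earlier results of these data known. Genes named are the members, MYB30, the largest passing rise and fall of each list, and the 8 genes nearest in pattern. AT5G28450, AT3G47460 and AT1G45545 are named for shared sequence or overlap with a member. Any other gene was picked with its values in view. Alternatives were an adjusted p of 0.01, Bonferroni adjustment, a minimum of 1 CPM, no filter, centring, a pseudocount of 1 CPM, transcript length and the other Col table. The 3 transposable element tables were not used.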

Additional observations from a re-analysis of the deposited data

How the results depend on the processing

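The 48 alternatives covered the member counts, medians, fold changes and Col levels. Counts and levels have no direction to change. The shifts from centring or a pseudocount were too small to reverse any fold change or median, so unchanged directions are no support. Fold changes and medians moved by less than 0.1 on the log2 scale, and Col levels by less than 0.1 of their value except that of LHCA3. With Bonferroni adjustment the members called higher in MYB30-OE against Col numbered 2, LHCA1 and LHCA2, where Benjamini-Hochberg adjustment called 4. The level of LHCA3 in Col was 1523 CPM per kb over its longest transcript in place of 1350.4 over all exons. Under Bonferroni adjustment 5 members were lower in myb30 against Col, since LHCA5 no longer passed, and 6 against MYB30-OE. Under the stricter threshold and the other filters both counts were 6. No paired analysis was possible because the tables hold no values of single libraries, and for the same reason no library could be left out. The effect of depth was not tested, and the scarcest member rests on about 2660 implied reads per library in myb30.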
